A study of Mus musculus with 4 samples.

Results

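The 7 genes described here belong to the glucocorticoid axis of the cell: the receptor gene Nr3c1, the hormone-regenerating enzyme gene Hsd11b1, and the receptor targets Fkbp5, Tsc22d3, Zbtb16, Sgk1 and Per1. They were taken by symbol from the 32285 genes of the count tables, all 7 were found, and their unique molecular identifiers (UMIs, counts of captured mRNA molecules) were summed by library and by cell lineage. The study profiled single cells of the stromal vascular fraction (SVF, the cells left after adipocytes are floated off a digest) of brown adipose tissue (BAT) in 4 libraries, with 1 library per group, each a pool of 3 mice. WT mice were C57BL6/J at 10 weeks, and the HFD library came from C57BL6/J mice on a high-fat diet, also labelled 10 weeks although the study's methods start that diet at this age. The 8-week and 16-week db/db libraries (db/db 8w and db/db 16w in the plots) came from mice labelled DB_DB on C57BL6/J, which lack a working leptin receptor and become obese and diabetic. All mice were described as males, and by the study's methods tissue was harvested after fasting. With 1 library per group no test was possible, so no p-value is given. The intervals are for counting error alone and say nothing of the spread between mice or preparations.

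Glucocorticoids (corticosterone in mice) cross the cell membrane and bind the receptor encoded by Nr3c1, which is held in the cytoplasm by heat-shock proteins and the co-chaperone FKBP5, moves to the nucleus and binds DNA. The enzyme encoded by Hsd11b1 regenerates active hormone from its inactive keto form inside adipose and liver cells. Fkbp5 itself is induced by the hormone and lowers the receptor's affinity for it, which makes it a standard readout of receptor activity, while Tsc22d3 (also called GILZ) encodes an anti-inflammatory leucine zipper protein, Zbtb16 (PLZF) a zinc finger transcription factor, Sgk1 a kinase that also answers to serum and cell stress, and Per1 a repressor of the circadian clock.

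In the mouse genome (GRCm38, equal to mm10) the annotation places the protein-coding gene Hsd11b1 (ENSMUSG00000016194) on the minus strand of chromosome 1 from 193221634 to 193264075. The gene Fkbp5 (ENSMUSG00000024222) lies on the minus strand of chromosome 17 from 28399094 to 28517527, and Tsc22d3 (ENSMUSG00000031431) on the minus strand of chromosome X from 140539528 to 140600659. Zbtb16 (ENSMUSG00000066687) lies on the minus strand of chromosome 9 from 48654297 to 48836222, Sgk1 (ENSMUSG00000019970) on the plus strand of chromosome 10 from 21882184 to 21999903, and Per1 (ENSMUSG00000020893) on the plus strand of chromosome 11 from 69095217 to 69109960.

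RefSeq promoters of GRCm38.p6, reaching from 250 bases before to 50 after a start site, were found for 5 of the 7 genes (13 promoters of 32851 in the table, not Nr3c1 or Zbtb16). The receptor binds as a pair to the palindrome AGAACA, 3 free bases, TGTTCT, searched on both strands, and 1 of the Sgk1 promoters was among the 3 promoters (0.00913%) that held it. Its first base stood 189 bases before the start. Sgk1 was chosen as the member that was past 2-fold above WT in stromal cells of all 3 obese libraries. The first 240 bases of that window, which begins 250 bases before the start, are shown with the palindrome in capitals (chr10:21993640-21993879, plus strand):
Sgk1: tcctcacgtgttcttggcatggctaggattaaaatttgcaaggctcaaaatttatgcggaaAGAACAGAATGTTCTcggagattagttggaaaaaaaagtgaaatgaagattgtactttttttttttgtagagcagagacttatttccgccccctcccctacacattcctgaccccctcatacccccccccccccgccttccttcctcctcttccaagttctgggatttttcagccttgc
None of the other 12 member promoters held the palindrome. For comparison, Per1 (chr11:69098699-69098938, plus strand) and Fkbp5 (chr17:28486160-28486399, minus strand) are shown over the same 240 bases, with the cAMP-response letters TGACG (20.8% of all promoters on either strand) and the E-box CACGTG bound by clock factors (7.15%) in capitals.
Per1: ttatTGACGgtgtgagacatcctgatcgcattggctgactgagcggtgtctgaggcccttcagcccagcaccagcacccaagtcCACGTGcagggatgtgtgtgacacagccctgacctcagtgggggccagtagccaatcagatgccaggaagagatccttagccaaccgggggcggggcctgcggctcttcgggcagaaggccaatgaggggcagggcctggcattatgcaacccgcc
Fkbp5: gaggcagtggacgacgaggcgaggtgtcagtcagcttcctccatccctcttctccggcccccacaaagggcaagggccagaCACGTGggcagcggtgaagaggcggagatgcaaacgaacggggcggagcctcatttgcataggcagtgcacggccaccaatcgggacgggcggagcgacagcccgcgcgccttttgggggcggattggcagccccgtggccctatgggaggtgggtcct
The Per1 window held 1 match of each, 246 and 166 bases before the start, and the Fkbp5 window 1 E-box 169 bases before it. The windows shown were picked because they held the letters in capitals. The other Per1 promoter held TGACG but no E-box, and the Hsd11b1 promoter held neither. The Sgk1 window also held 1 E-box, in lower case above. These matches are letters in a window and were not tested as binding sites.

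The libraries held 28504069 to 61828295 UMIs over 6517 to 18306 barcodes, and 28887 cells passed the quality limits. Of the distinct barcodes, 267 of 50313 occurred in more than 1 library, 89 of them among kept cells. Cells were gated on raw marker UMIs into stromal cells (1181 to 6697 per library), macrophages (1179 to 2854) and endothelial cells (8 in WT, 67 in 8-week db/db, 1255 in 16-week db/db and 908 in HFD), and 76.0% to 93.6% of kept cells joined a lineage. Mature adipocytes were nearly absent, with 3 cells in all. In the HFD library 68.5% of barcodes were over the mitochondrial limit, against 1.04% to 35.6% in the others. The 16-week db/db library held Xist, the RNA of the inactive X chromosome, at 207 counts per 1000000 UMIs (CPM), against at most 0.688 CPM in the 3 others. This goes against a library of males, so sex cannot be told apart from age and genotype there. In a sum over cells, fewer cells of a subtype and less RNA per cell cannot be told apart.

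Nr3c1, the receptor gene (ENSMUSG00000024431, chromosome 18, minus strand, 39410545 to 39519421), was detected in every lineage with at least 50 cells, and in stromal cells it differed less between libraries than the other 6 genes did. In stromal cells it stood at 154 CPM in WT, 146 CPM in 8-week db/db, 134 CPM in 16-week db/db and 200 CPM in HFD. The HFD level was 1.3-fold the WT level (95% interval 1.23 to 1.37), and in both db/db libraries the level was within 1.15-fold of WT. In macrophages it was 135, 101, 54.2 and 123 CPM in the same order, so that 16-week db/db stood apart at 2.49-fold below WT (log2 ratio -1.31, interval -1.44 to -1.19). Per UMI, endothelial cells held the most receptor RNA of the 3 large lineages, with 245 CPM in 8-week db/db (from 67 cells), 170 CPM in 16-week db/db and 323 CPM in HFD. The order endothelial, stromal, macrophage held in the 3 libraries that had at least 50 endothelial cells. Per cell it did not hold in the db/db libraries, where endothelial cells had 0.582 and 0.219 Nr3c1 UMIs, fewer than stromal cells (0.623 and 0.509) and macrophages (0.666 and 0.401).

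**Figure D1:**
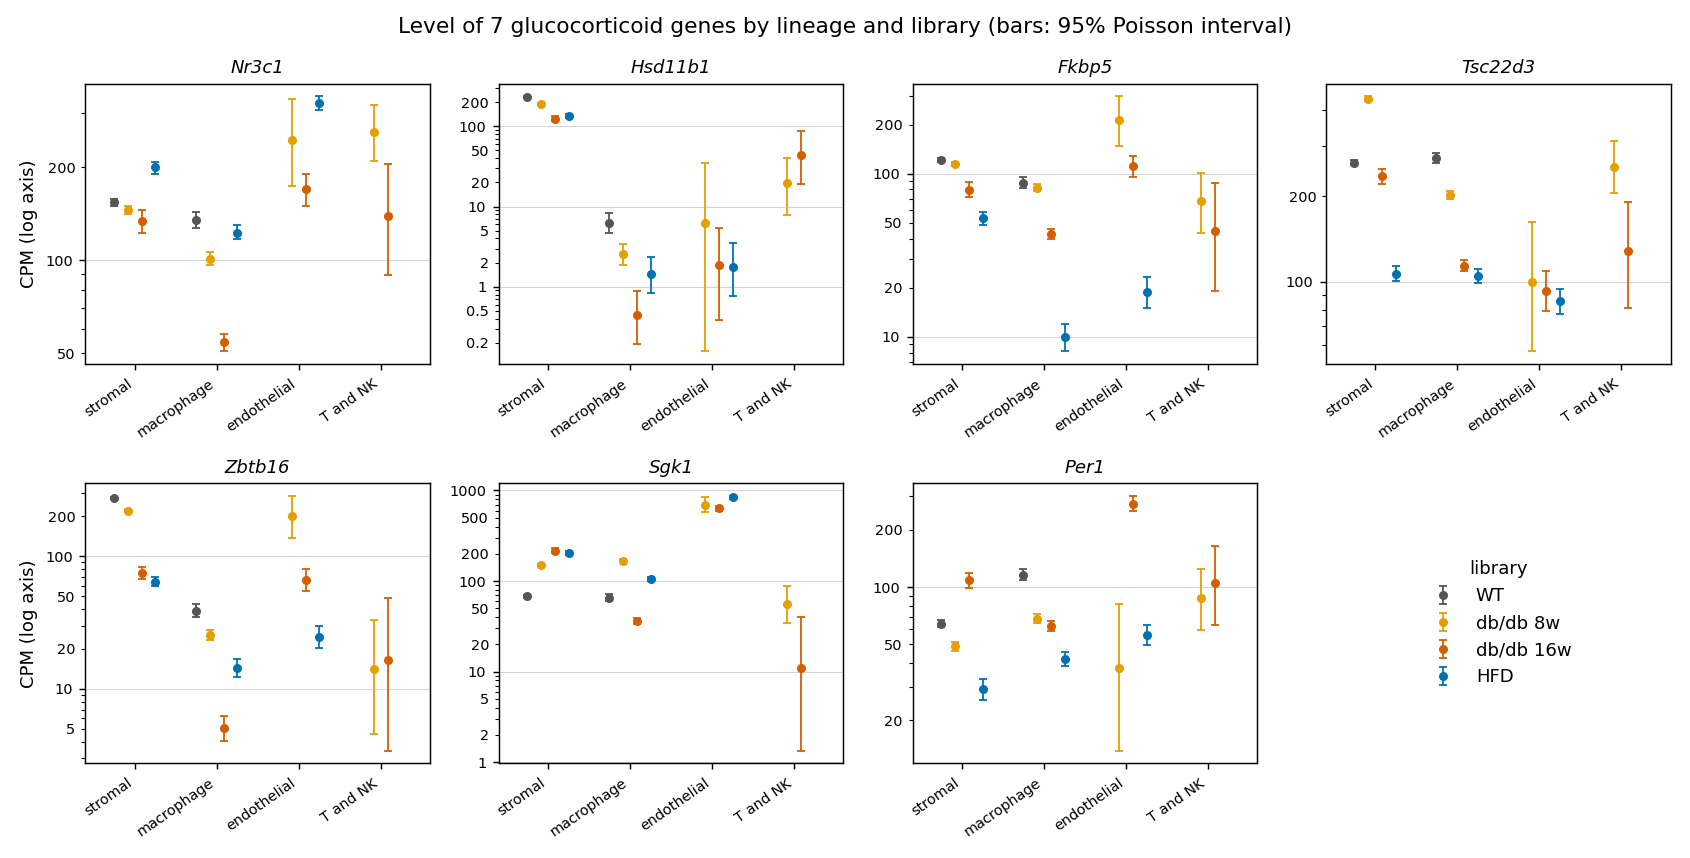
Level of the 7 genes in CPM (log axis) in each lineage of at least 50 cells, with 1 point per library and bars for the exact 95% Poisson interval, which covers counting error only. Hsd11b1 was high in stromal cells alone among the 3 large lineages, and Sgk1 was highest in endothelial cells in the 3 libraries that had them.

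Hsd11b1 was a stromal gene in these cells. Its level there was 231 CPM in WT, 190 CPM in 8-week db/db, 125 CPM in 16-week db/db and 135 CPM in HFD, lower than WT in the 3 obese libraries. The log2 ratios to WT were -0.28 (interval -0.33 to -0.23), -0.89 (-1.01 to -0.76) and -0.78 (-0.87 to -0.69), none past 2-fold. Of all Hsd11b1 UMIs in kept cells, 98.6% in WT, 95.7% in 8-week db/db, 89.3% in 16-week db/db and 89% in HFD came from stromal cells. Macrophages held 6.26, 2.56, 0.45 and 1.45 CPM, from 50, 48, 8 and 17 UMIs. Free stromal RNA was of like size there: in WT macrophages Hsd11b1 was at 2.71% of its stromal level (interval 2.01 to 3.58) and 4 stromal genes outside the gates (Col3a1, Mfap5, Serpinf1, Igfbp6) together at 2.28%. The same pair was 1.35% and 1.09% in 8-week db/db, 0.36% and 0.0616% in 16-week db/db, and 1.08% and 0.748% in HFD, so Hsd11b1 in macrophages is read as background in WT, 8-week db/db and HFD and rests on 8 UMIs in 16-week db/db. Endothelial cells held 1 to 8 Hsd11b1 UMIs per library. Stromal cells were 73.1% of kept cells in WT and 20.2% in 16-week db/db, and the Hsd11b1 level summed over all cells was 182 CPM in WT and 23.7 CPM in 16-week db/db, a larger gap than within stromal cells.

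Fkbp5 was lowest in the HFD library in all 3 lineages. In stromal cells it stood at 121 CPM in WT, 115 CPM in 8-week db/db, 79.8 CPM in 16-week db/db and 53.2 CPM in HFD. The level was lower in each of the 3 obese libraries, with 8-week db/db within 1.06-fold of WT and HFD 2.28-fold below it (log2 ratio -1.19, interval -1.33 to -1.05). In macrophages the levels were 88.1, 82.2, 42.8 and 9.91 CPM, and HFD was 8.89-fold below WT (log2 ratio -3.15, interval -3.45 to -2.87). After each cell was thinned to 1000 UMIs, 9.24% of WT macrophages held an Fkbp5 UMI (interval 7.64 to 11) and 1.2% of HFD macrophages did (0.723 to 1.87), against 36.8% and 6.94% before thinning. In endothelial cells Fkbp5 was 112 CPM in 16-week db/db and 18.8 CPM in HFD, and 213 CPM (148 to 298) in the 67 cells of 8-week db/db.

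Tsc22d3 was highest in 8-week db/db and lowest in HFD in stromal cells. Its stromal level was 262 CPM in WT, 440 CPM in 8-week db/db, 235 CPM in 16-week db/db and 107 CPM in HFD. Against WT that was 1.68-fold higher in 8-week db/db (interval 1.63 to 1.73) and 2.44-fold lower in HFD, while 16-week db/db was within 1.12-fold. In macrophages the order was another one, with 272 CPM in WT, 202 CPM in 8-week db/db, 114 CPM in 16-week db/db and 105 CPM in HFD, all obese libraries below WT. Endothelial cells held 100 CPM in 8-week db/db (57.3 to 163), 93.1 CPM in 16-week db/db and 85.5 CPM in HFD, with overlapping intervals. The 97 neutrophils of 8-week db/db had 574 CPM (464 to 703), above the stromal cells and macrophages of that library.

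Of the 7 genes, Zbtb16 showed the widest gap between stromal cells of WT and those of 16-week db/db and of HFD. Stromal cells held 276 CPM in WT, 220 CPM in 8-week db/db, 74.9 CPM in 16-week db/db and 64.3 CPM in HFD. The 16-week db/db level was 3.68-fold below WT (log2 ratio -1.88, interval -2.04 to -1.72) and the HFD level 4.28-fold below it (log2 ratio -2.10, -2.22 to -1.98). Macrophages had 38.8, 25.5, 5.06 and 14.5 CPM in the same order, and stromal cells exceeded macrophages in each library, by 4.43-fold in HFD to 14.8-fold in 16-week db/db. In the endothelial cells of 8-week db/db, 16-week db/db and HFD the level was 201, 66.6 and 24.7 CPM.

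Sgk1 went the other way. In stromal cells it was 68.0 CPM in WT, 150 CPM in 8-week db/db, 217 CPM in 16-week db/db and 205 CPM in HFD, higher than WT in the 3 obese libraries. The log2 ratios to WT were 1.14 (interval 1.07 to 1.21), 1.67 (1.56 to 1.78) and 1.59 (1.51 to 1.68). The thinned share of stromal cells with an Sgk1 UMI was 5.62% in WT, 11.5% in 8-week db/db, 21.1% in 16-week db/db and 17% in HFD, in the same order as the CPM. Macrophages did not follow: they held 65.7 CPM in WT, 167 CPM in 8-week db/db, 36.2 CPM in 16-week db/db and 106 CPM in HFD, so 8-week db/db was above WT and 16-week db/db below it. Endothelial cells carried the highest Sgk1 levels, 696 CPM in 8-week db/db (573 to 838), 636 CPM in 16-week db/db and 840 CPM in HFD, which was 2.94-fold to 4.64-fold the stromal level of the same library. RNA of endothelial gate markers in stromal cells amounted to 3.98% of its endothelial level in HFD, 0.849% in 16-week db/db and 0.282% in 8-week db/db. The gate itself limits those markers, and 4 endothelial genes outside it (Flt1, Tie1, Tek, Ramp2) stood at 13.5%, 11.3% and 11.8%, while Sgk1 was at 24.4%, 34% and 21.5% of its endothelial level. In WT stromal cells, with 8 endothelial cells in the library, those 4 genes summed to 495 CPM, against 247 to 328 CPM in the others. With the stricter gate, in which the leading lineage held at least 90% of marker UMIs, the stromal Sgk1 log2 ratio in HFD was 1.49.

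Per1 was high in the 16-week db/db library in stromal and endothelial cells. Its stromal level was 64.1 CPM in WT, 49.0 CPM in 8-week db/db, 109 CPM in 16-week db/db and 29.0 CPM in HFD. The HFD level was 2.21-fold below WT and the 16-week db/db level 1.7-fold above it (interval 1.54 to 1.87). In macrophages WT was highest, with 116 CPM against 68.3, 62.2 and 41.9 CPM in 8-week db/db, 16-week db/db and HFD. In endothelial cells 16-week db/db had 274 CPM, and HFD had 56.1 CPM, 4.89-fold less. Hours of dissection were not used here, and time of day cannot be told apart from group.

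Counted together in stromal cells, 1 of the 7 genes was at least 2-fold from WT in 8-week db/db (Sgk1, higher), 2 in 16-week db/db (Sgk1 higher, Zbtb16 lower) and 5 in HFD (Sgk1 higher, and Fkbp5, Tsc22d3, Zbtb16 and Per1 lower). Among all genes with at least 20 CPM in 1 of the libraries compared, 4.02% were that much higher in 8-week db/db and 2.9% lower, 13.2% higher and 14.9% lower in 16-week db/db, and 9.99% higher and 7.87% lower in HFD. One lower gene of 7 in 16-week db/db was thus close to that background, whereas 4 of 7 lower genes in HFD were 57.1%. Their median log2 ratio was -0.08, -0.20 and -1.14 in 8-week db/db, 16-week db/db and HFD, and that of all genes compared 0.03, 0.01 and 0.09. All 3 comparisons share the WT library. Over all kept cells, lineage shares included, Sgk1 was higher in 8-week db/db and HFD and 0 genes in 16-week db/db, Hsd11b1 and Zbtb16 were lower in 16-week db/db, and Hsd11b1, Fkbp5, Tsc22d3 and Zbtb16 in HFD. The background there was 5.78% higher and 4.98% lower in 8-week db/db, 20.4% and 25.9% in 16-week db/db, and 15.1% and 11.6% in HFD.

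In macrophages 6 of the 7 genes reached 20 CPM, all but Hsd11b1. At least 2-fold from WT were 1 in 8-week db/db (Sgk1, higher), 4 in 16-week db/db (Nr3c1, Fkbp5, Tsc22d3 and Zbtb16, lower) and 4 in HFD (Fkbp5, Tsc22d3, Zbtb16 and Per1, lower). The background was 5.59% higher and 5.56% lower in 8-week db/db, 22.5% higher and 25.5% lower in 16-week db/db, and 14.8% higher and 11.2% lower in HFD. The count in 16-week db/db was 2 (Tsc22d3 and Zbtb16) when CPM were averaged over cells rather than summed. All genes compared had a median log2 ratio of 0.06, -0.08 and 0.21 in the 3 libraries, the 6 members -0.42, -1.15 and -1.40. With the median of all genes set to 0 the same 4 genes were lower in HFD, and in 16-week db/db Fkbp5 was no longer past 2-fold (log2 ratio -0.96).

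**Figure D2:**
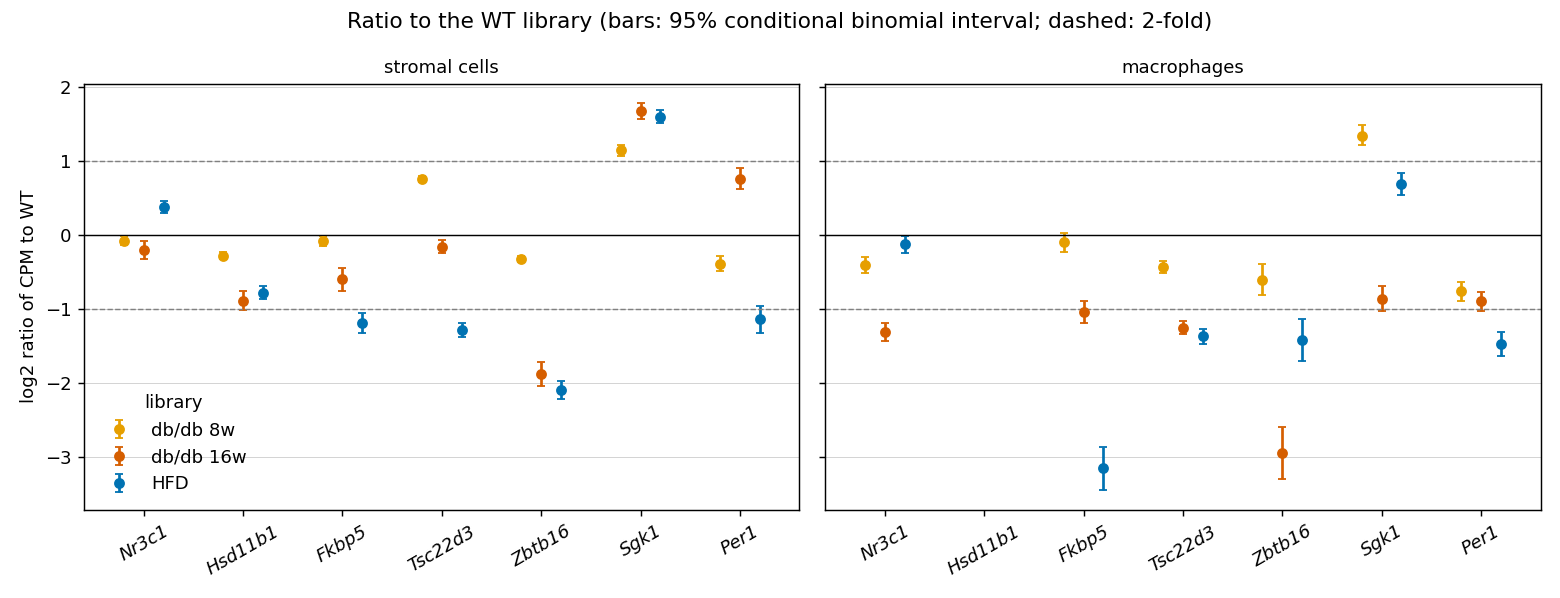
Log2 ratio of each gene's CPM to the WT library in stromal cells (left) and macrophages (right), 1 point per obese library, with bars for the exact 95% conditional binomial interval and dashed lines at 2-fold. Hsd11b1 is not drawn in macrophages, where it stayed under 20 CPM, and Sgk1 is the only gene above the upper dashed line.

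Endothelial cells could be compared between 16-week db/db and HFD. In HFD 3 of the 6 genes with at least 20 CPM were at least 2-fold lower than in 16-week db/db, namely Fkbp5 (log2 ratio -2.57, interval -2.96 to -2.19), Per1 (-2.29, -2.52 to -2.06) and Zbtb16 (-1.43, -1.82 to -1.03), where 7.33% of all genes were that much lower and 20.5% that much higher. Nr3c1 was 1.9-fold higher (interval 1.67 to 2.17), Sgk1 1.32-fold higher, and the Tsc22d3 interval included no difference (log2 ratio -0.12, -0.40 to 0.16). The endothelial cells of 16-week db/db were shallow, with a median of 1017 UMIs against 4508.5 in HFD. With cells of at least 1500 UMIs alone the same 3 genes stayed past 2-fold, and Nr3c1 joined as the only higher one (log2 ratio 1.16).

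Each lineage was then divided, since the make-up of stromal cells and macrophages differed between libraries. Stromal progenitors (Pi16, Dpp4, Cd55, Sema3c) were 70.6% of stromal cells in WT, 24.7% in 8-week db/db, 2.2% in 16-week db/db and 8.78% in HFD, and committed preadipocytes (Col15a1, Col4a1, Fabp4, Pparg) were 15.3%, 52.3%, 92.7% and 86.4%. Perivascular macrophages (Lyve1, Folr2, Cd163, F13a1, Cbr2) were 93.8%, 55%, 15.4% and 7.26% of macrophages, and lipid-associated macrophages (LAMs, with Trem2, Gpnmb, Cd9, Spp1, Fabp5) were 1.53%, 27%, 69.3% and 67.6%. Only 26 progenitors in 16-week db/db and 18 LAMs in WT were found, so these were not compared.

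Within perivascular macrophages the gaps to WT were smaller than over all macrophages for Tsc22d3, Zbtb16 and Fkbp5 in 16-week db/db and HFD. Tsc22d3 was 284 CPM in WT, 323 CPM in 8-week db/db, 280 CPM in 16-week db/db and 296 CPM in HFD, all within 1.14-fold of WT. Nr3c1 was 139, 142, 143 and 207 CPM, and Zbtb16 40.8, 38.4, 25.6 and 36.5 CPM. Fkbp5 in HFD was the only gene past 2-fold, at 42.6 CPM against 92.2 CPM in WT (log2 ratio -1.11, interval -1.82 to -0.49, from 115 cells and 21 UMIs). No gene was past it in 8-week db/db or 16-week db/db, where 1.84% and 18.3% of all genes were that much higher and 2.18% and 12.3% lower, against 13.6% and 8.75% in HFD.

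In CPM, LAMs stood below perivascular macrophages of the same library in Nr3c1, Fkbp5, Tsc22d3, Zbtb16 and Per1, in each of the 3 obese libraries. The perivascular marker Cd163 is also on the list of other glucocorticoid-induced genes below, so this division is not independent of the hormone's targets. Tsc22d3 in LAMs was 110 CPM in 8-week db/db, 93.3 CPM in 16-week db/db and 85.8 CPM in HFD, 2.93-fold to 3.45-fold under the perivascular cells beside them. Fkbp5 in LAMs was 51.4, 34.3 and 6.78 CPM, 2.33-fold, 3.15-fold and 6.28-fold under. LAMs were deeper, with a median of 9235, 7645 and 7088 UMIs per cell in 8-week db/db, 16-week db/db and HFD against 4246, 2882.5 and 3889 in perivascular cells. Per cell, Fkbp5, Tsc22d3 and Zbtb16 were still lower in LAMs in all 3 libraries, but Nr3c1 was not in 8-week db/db (0.731 against 0.682 UMIs) and HFD (0.981 against 0.887), nor Per1 in 8-week db/db (0.505 against 0.439). Sgk1 did not share the order in CPM: LAMs of 8-week db/db held 246 CPM against 92.5 CPM in perivascular cells, LAMs of HFD 114 against 64.9 CPM, and LAMs of 16-week db/db 34.9 against 44.9 CPM, with intervals that overlapped in 16-week db/db (32 to 38 and 33.9 to 58.3). Sgk1 per cell was higher in LAMs in all 3 libraries, also in 16-week db/db (0.314 against 0.151 UMIs). Sgk1 in LAMs was thus 7.05-fold higher in 8-week db/db than in 16-week db/db.

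In the stromal subsets Sgk1 was higher in committed cells than in progenitors. Progenitors held 52.5 CPM in WT, 49.8 CPM in 8-week db/db and 57.8 CPM in HFD, with overlapping intervals, and committed cells 117 CPM in WT, 202 CPM in 8-week db/db, 218 CPM in 16-week db/db and 220 CPM in HFD. Committed cells exceeded progenitors by 2.23-fold in WT, 4.05-fold in 8-week db/db and 3.81-fold in HFD. Within committed cells the log2 ratios to WT were 0.78, 0.90 and 0.91, under 2-fold, with a median of 0.14, 0.16 and 0.24 over all genes. The progenitor level in HFD was 91 CPM when Fabp4 and Fabp5 were left out of the subset lists.

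Hsd11b1 in committed cells was 337 CPM in WT, 215 CPM in 8-week db/db, 123 CPM in 16-week db/db and 145 CPM in HFD. The gap to WT was wider there than over all stromal cells, with log2 ratios of -0.65 (interval -0.73 to -0.57), -1.45 (-1.59 to -1.31) and -1.21 (-1.32 to -1.11). In WT committed cells exceeded progenitors by 1.65-fold, and in HFD progenitors held 32.8 CPM from 21 UMIs. Zbtb16 was higher in progenitors than in committed cells in WT (299 and 185 CPM), 8-week db/db (333 and 165 CPM) and HFD (136 and 57.5 CPM). Committed cells of 16-week db/db held 71.6 CPM of it, 2.58-fold below committed cells of WT.

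Tsc22d3 in 8-week db/db was above WT in both stromal subsets, with 455 against 259 CPM in progenitors and 427 against 265 CPM in committed cells. In HFD it was 87.5 CPM in progenitors and 108 CPM in committed cells, below WT in both. Of the 7 genes, past 2-fold within committed cells were Hsd11b1 and Zbtb16 (lower) and Per1 (higher, 108 against 40.7 CPM) in 16-week db/db, and Hsd11b1, Tsc22d3 and Zbtb16 (lower) in HFD, with 15.7% of all genes higher and 10.8% lower in 16-week db/db and 11.6% and 4.95% in HFD. In 8-week db/db none was, beside 4.43% and 2.38% of all genes. Within progenitors none was past it in 8-week db/db (background 2.43% and 2.23%), and Hsd11b1, Fkbp5, Tsc22d3 and Zbtb16 were lower in HFD (6.77% and 6.33%), from 142 cells.

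**Figure D3:**
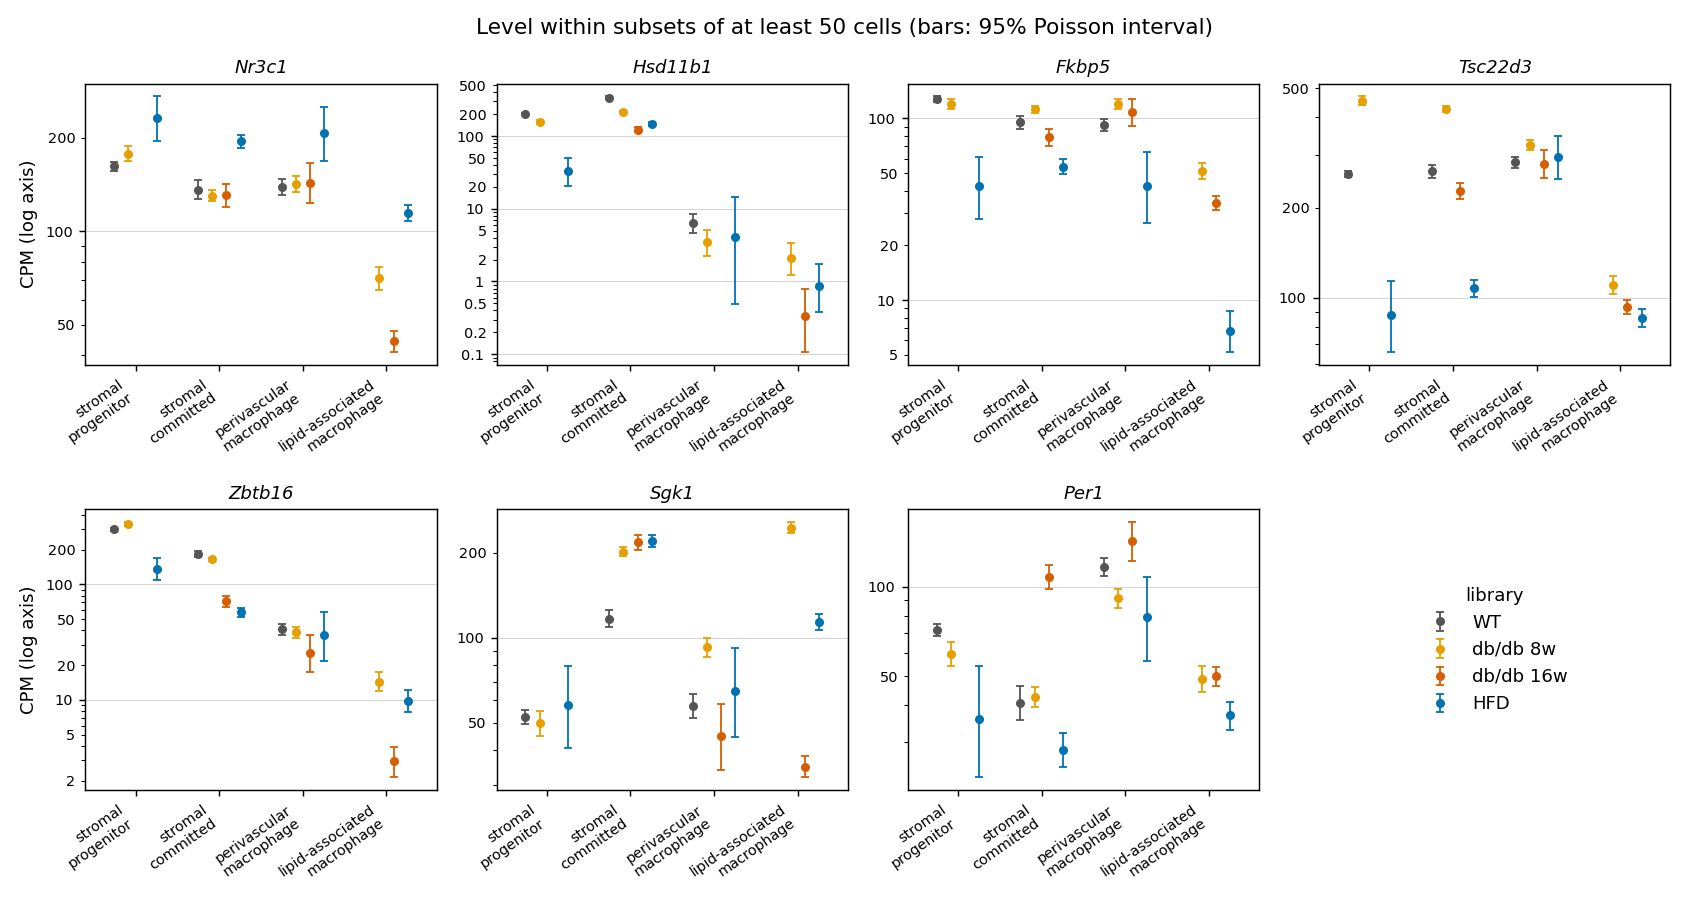
Level of the 7 genes in CPM (log axis) in stromal progenitors, committed preadipocytes, perivascular macrophages and lipid-associated macrophages with at least 50 cells, 1 point per library, bars for the exact 95% Poisson interval. Tsc22d3 in perivascular macrophages lies between 280 and 323 CPM in all 4 libraries, and Sgk1 in progenitors between 49.8 and 57.8 CPM in 3.

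The receptor's partners were followed in a list of 15 genes (chaperones, co-chaperones, coactivators, corepressors, the mineralocorticoid receptor gene Nr3c2 and the enzyme genes Hsd11b2 and H6pd), of which 13 reached 20 CPM in both lineages. In stromal cells 0 of them were 2-fold from WT in 8-week db/db, 3 were lower in 16-week db/db (Hsp90aa1, Dnaja1, Ncoa2) and 1 in HFD (Hsp90aa1), and 0 were higher, beside 2.9%, 14.9% and 7.87% of all genes lower. In macrophages 0, 5 and 3 were lower, and Bag1, a co-chaperone that binds HSP70, was higher in 16-week db/db, beside 5.56%, 25.5% and 11.2% of all genes lower and 22.5% higher in 16-week db/db. The stress-inducible chaperone gene Hsp90aa1 had macrophage log2 ratios of -0.90, -3.13 and -2.55 in 8-week db/db, 16-week db/db and HFD, and the coactivator gene Ncoa2 of -0.62, -2.03 and -0.56. The median of the list in macrophages was -0.34, -0.68 and -0.38.

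A list of 28 other genes known to be induced by glucocorticoids held more genes below WT than above it in 16-week db/db and HFD. In stromal cells 3 of 25 with at least 20 CPM were lower than WT in 8-week db/db, 10 of 23 in 16-week db/db and 12 of 24 in HFD, and 3, 1 and 2 were higher, with medians of -0.31, -0.78 and -0.96, beside the same 2.9%, 14.9% and 7.87% lower and 4.02%, 13.2% and 9.99% higher over all genes. In macrophages 4, 17 and 11 of 22 were lower and 3, 2 and 1 higher, with medians of -0.30, -1.48 and -1.0, beside 5.56%, 25.5% and 11.2% lower and 5.59%, 22.5% and 14.8% higher over all genes. Among the genes lower in stromal cells of all 3 obese libraries were Il1r2, the decoy receptor of interleukin 1 (log2 ratios -3.23, -4.10 and -3.96), and Errfi1, an inhibitor of the EGF receptor (-1.18, -2.74 and -1.82). Others were Glul, glutamine synthetase (-0.96, -1.79 and -2.28), Cebpd, a transcription factor of early adipogenesis (-0.90, -1.47 and -1.72), and Pdk4, a brake on glucose oxidation (-1.58, -0.78 and -1.36). Genes lower in macrophages of all 3 included Txnip (-1.79, -2.06 and -3.55), the mRNA-decay factor gene Zfp36 (-1.14, -3.85 and -3.67), Cebpd (-1.0, -2.56 and -2.79) and Lpin1 (-1.15, -3.02 and -0.99). The gene Anxa1, a mediator of the hormone's anti-inflammatory action, went the other way in macrophages (2.17, 3.05 and 3.38). Cd163 of this list is also a marker of perivascular cells, which were 93.8% of macrophages in WT, 15.4% in 16-week db/db and 7.26% in HFD. It was 1 of the 3 genes higher in stromal cells of 8-week db/db, at 20.6 CPM there against 431 CPM in macrophages. Carried-over macrophage RNA was not tested as its source. The list was not recomputed within subsets, nor among cells with little RNA of the digestion-response genes given below. Subset shares and those responses therefore cannot be told apart from hormone action in these counts.

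**Figure D4:**
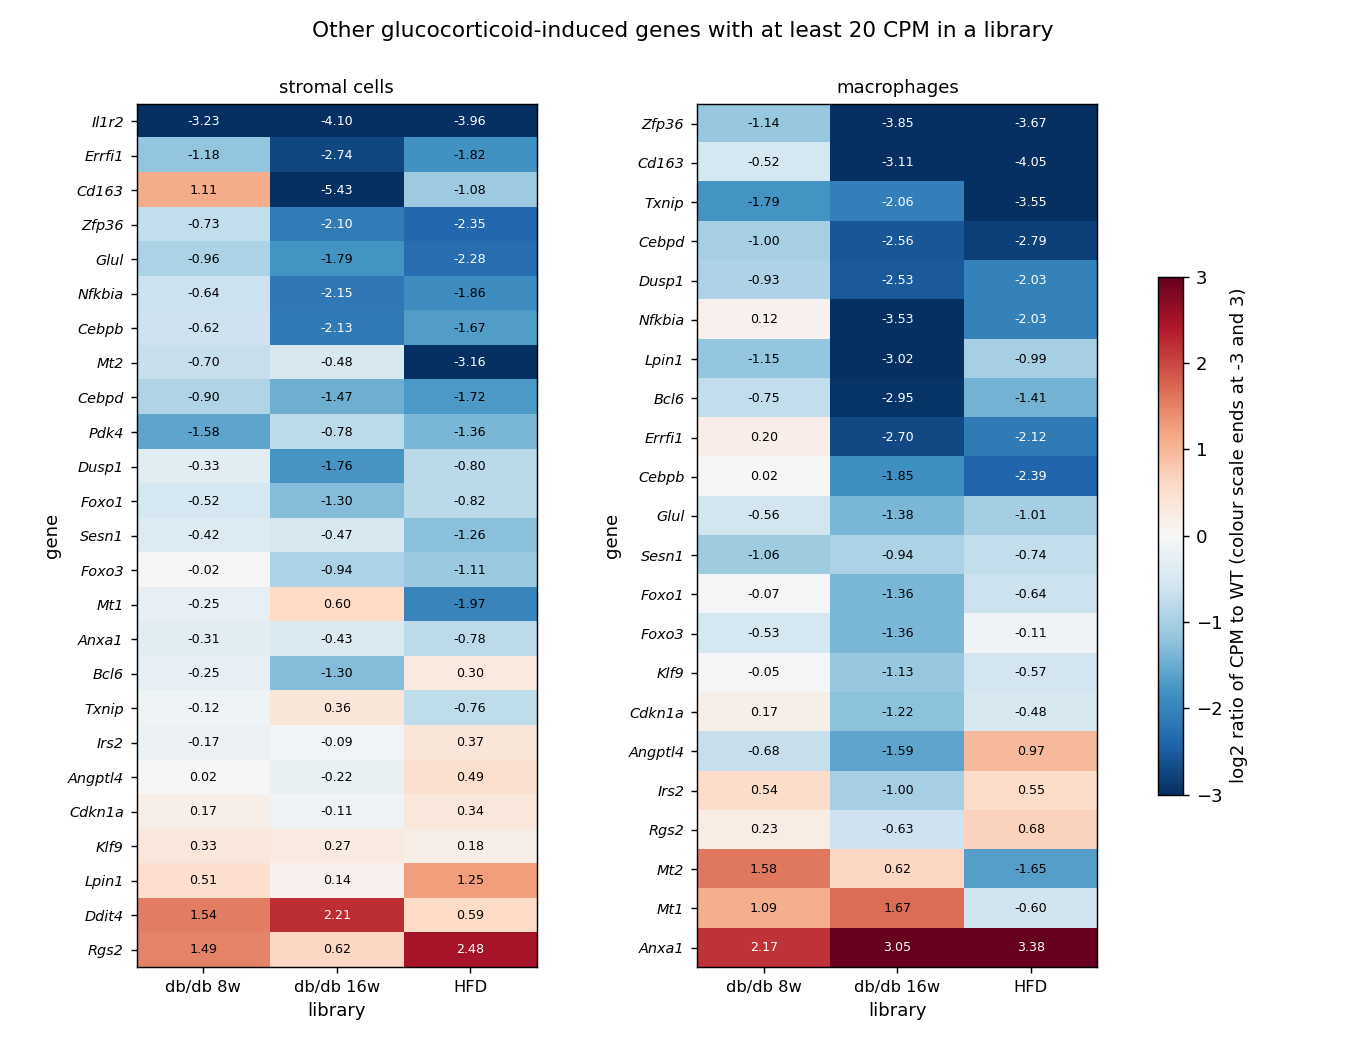
Log2 ratio of CPM to WT for the other glucocorticoid-induced genes with at least 20 CPM in a library, in stromal cells (left) and macrophages (right), with 1 column per obese library and the value printed in each cell. Lower values (blue) are most frequent in macrophages of 16-week db/db, where 17 of 22 genes were at least 2-fold below WT, and Anxa1 is above WT in all 3.

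Of 9 inflammatory genes that the hormone represses, nearly all measured in macrophages were below WT in 16-week db/db and HFD. In macrophages 8 of 8 with at least 20 CPM were at least 2-fold below WT in 16-week db/db and 7 of 8 in HFD, with medians of -4.81 and -4.32, beside 25.5% and 11.2% of all genes. In 8-week db/db the median was 0.15, and 1 was lower (Mmp9) and 1 higher (Cxcl1, log2 ratio 1.60), beside 5.56% and 5.59% of all genes. Tnf (0.85), Il1a (0.61) and Il1b (0.56) were also above WT there. Genes below WT in all 3 obese libraries are given next. Mmp9, a matrix protease, had macrophage log2 ratios of -2.58, -4.13 and -5.44, Ptgs2, cyclooxygenase 2, of -0.65, -6.48 and -4.62, Il6 of -0.48, -8.93 and -5.36, and Ccl2, a monocyte chemokine, of -0.27, -1.06 and -4.02. In stromal cells 6, 4 and 4 of the genes reached 20 CPM in 8-week db/db, 16-week db/db and HFD. At least 2-fold lower were 1, 4 and 2 of them, beside 2.9%, 14.9% and 7.87% of all genes. Higher were 2, 0 and 0, beside 4.02%, 13.2% and 9.99% of all genes. The 2 higher genes were Il1b (log2 ratio 3.03) and Tnf (2.90) in 8-week db/db. They stood at 141 and 46.5 CPM in those stromal cells, against 2505 and 818 CPM in macrophages of that library. Summed RNA of 4 macrophage genes outside the gates was also higher in stromal cells of 8-week db/db (265 CPM) than of WT (45.5 CPM). Expression by stromal cells was thus not told apart from carried-over macrophage RNA, which was not tested. Stromal Ptgs2 had -1.95, -8.03 and -2.90 and Il6 -0.60, -3.20 and -0.19.

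RNA of genes that respond to tissue digestion also differed between the libraries, except that the immediate-early level in stromal cells of HFD was near that of WT. The summed level of 5 heat-shock genes in macrophages was 12665 CPM in WT, 4967 CPM in 8-week db/db, 1322 CPM in 16-week db/db and 215 CPM in HFD, and in stromal cells 7738, 6249, 3336 and 452 CPM. The summed level of 9 immediate-early genes in macrophages was 18741, 9107, 2924 and 5620 CPM, and in stromal cells 12654, 9606, 3973 and 12248 CPM. Among cells at or below the median share of these 14 genes within their lineage and library, the Fkbp5 log2 ratio in HFD was -3.22 in macrophages and -1.42 in stromal cells, whereas Per1 in stromal cells of HFD was no longer past 2-fold. In the same cells the Sgk1 log2 ratio in stromal cells was 1.59, 2.85 and 2.29 in 8-week db/db, 16-week db/db and HFD, each as large as or larger than in all cells. Nuclear transcripts (Malat1, Neat1, Meg3, Kcnq1ot1) summed to 24389 CPM in WT macrophages and 7928 CPM in 16-week db/db macrophages, and to 32469 and 24090 CPM in stromal cells. Their part in the results was not tested beyond the alternatives given with the processing.

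In stromal cells the other clock genes with at least 20 CPM had median log2 ratios of -0.28, -0.30 and -0.83 in 8-week db/db, 16-week db/db and HFD. Per1 was below WT in 8-week db/db and HFD as well, but above it in 16-week db/db. Of 12 clock genes, 8 reached 20 CPM in stromal cells of 8-week db/db and of HFD and 7 in 16-week db/db. At least 2-fold lower than WT were 0, 1 and 4 of them (Nr1d2 in 16-week db/db, and Per3, Cry2, Nr1d1 and Nr1d2 in HFD), and 0 were higher. Over all genes 2.9%, 14.9% and 7.87% were lower, so the 1 of 7 in 16-week db/db was near that share. The repressor gene Nr1d1 had stromal log2 ratios of -0.93, -0.16 and -2.89 and macrophage ones of -0.94, -2.17 and -3.78. In macrophages, where Per1 was below WT in all 3 obese libraries, the clock genes had medians of -0.32, -1.61 and -0.84. At least 2-fold lower were 0 of 4, 3 of 4 and 2 of 5, beside 5.56%, 25.5% and 11.2% of all genes. Higher were 1, 0 and 1, beside 5.59%, 22.5% and 14.8%. The higher one was Bhlhe40, another clock repressor (1.63, 0.18 and 1.58).

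Over the 11 lineage sums with at least 100 cells, 9214 genes were ranked by how alike their log2(CPM + 1) was to each member. The points share libraries and lineages, so the correlations describe these sums only. Hsd11b1 was most like Epb41l3 and Efs (Pearson r = 0.99 each), and Nr3c1 most like Bclaf3, Slc38a2 and Chd6 (0.97 each). Zbtb16 was closest to Rere (0.96) and Elmod2 (0.95), and Sgk1 to Lrrc32, Pcnx (0.94 each) and Clec14a (0.93), of which Clec14a marks endothelium. Per1 was nearest to Arrdc2 (0.92), Lin37 (0.91) and Gmeb2 (0.89), Tsc22d3 to Mrgprg (0.89), Sh3gl1 (0.88) and Gstp1 (0.84), and Fkbp5 to Gypc (0.90), Gstp1 (0.84) and the heat-shock gene Hspa1b (0.84). Leaving out 1 library at a time, the Fkbp5 and Gstp1 correlation went down to 0.32, and that of Fkbp5 and Gypc stayed between 0.87 and 0.94.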

How the data were processed

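Single-cell RNA of BAT SVF was measured in 4 libraries. The deposited values are unnormalized UMI counts in whole numbers for every gene and barcode, made by the authors from 10x Genomics 3′ libraries with Cell Ranger on mm10 (version 7.1.0 in the submitters' processing notes, 6.0.0 in the file headers). The files held called barcodes before any quality filter. The limits of the study were applied to each cell (between 250 and 6000 genes, between 500 and 30000 UMIs, less than 15% of them mitochondrial). A cell joined a lineage with at least 3 UMIs over at least 2 of its markers and at least 75% of all marker UMIs, and a subset with at least 2 UMIs and 75% of both subset lists. No doublet caller was run, and that 75% rule leaves out cells with mixed markers. UMIs were summed per lineage and library and scaled to 1000000 UMIs (CPM). Intervals are 95%, exact Poisson for CPM, exact conditional binomial for ratios and Clopper-Pearson for shares, and cover counting error only. A gene was counted at 2-fold with at least 20 CPM in 1 of both libraries, which with 1 library per group is a description and no test. Shares of cells were also computed after each cell was thinned to 1000 UMIs, leaving out shallower cells.

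The members and lists were chosen with earlier results of these data known. All members are named, and from each other list up to 5 genes with at least 20 CPM and 1 sign of the log2 ratio in the 3 obese libraries, ranked by the smallest of the 3 ratios, with up to 3 similar genes per member, of which some are not reported here. Genes named as past 2-fold beyond that rule are those of counts of 5 or fewer, and were named after their values were seen. Gene positions came from GENCODE vM21. The scripts used Python 3.11.15, numpy 2.4.6, scipy 1.17.1, pandas 2.3.3 and matplotlib 3.10.9, and were tested on simulated counts.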

Additional observations from a re-analysis of the deposited data

Results flagged for a closer look

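For 4 genes the log2 ratio to WT had opposite signs in stromal cells and macrophages of the same libraries, with intervals that excluded 0 in both, and the difference was not tested, since each group is 1 library. They were Tsc22d3 in 8-week db/db (0.75 in stromal cells and -0.43 in macrophages), Sgk1 in 16-week db/db (1.67 and -0.86), Per1 in 16-week db/db (0.76 and -0.90) and Nr3c1 in HFD (0.38 and -0.13). Within perivascular macrophages alone, Tsc22d3 (323 against 284 CPM in WT), Per1 (143 against 117) and Nr3c1 (207 against 139) were above WT in these libraries. Sgk1 was below it there (44.9 against 57.5 CPM). The intervals of Per1 and of Sgk1 overlapped those of WT.

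Barcodes that failed a quality limit were used in no comparison above, and among them some genes were at least 2-fold higher than in the failed barcodes of WT. These were Tsc22d3 in 8-week db/db (log2 ratio 1.08), Sgk1 in 8-week db/db (1.59) and HFD (2.88), and Nr3c1 in HFD (1.19). Of all genes with at least 20 CPM in these barcodes, 17% were that much higher in 8-week db/db and 22.5% in HFD. Others were at least 2-fold lower: Hsd11b1 (-1.64), Fkbp5 (-2.02) and Zbtb16 (-2.26) in HFD, where 8.94% of all genes were, and all 7 genes in 16-week db/db (-6.17 to -1.09), where 45.9% were. The failed barcodes were not divided by lineage, so lineage shares cannot be told apart from gene levels in these ratios. Without the mitochondrial limit, 2351 endothelial cells were gated in HFD, against 908 with it.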

How the results depend on the processing

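No paired analysis was possible because each group is 1 library. For the same reason no replicate could be left out, and leaving out a doubted library ends its comparison. Of 231 log2 ratios recomputed in stromal cells under 11 alternatives, 230 kept their sign, the exception being Tsc22d3 in 16-week db/db (0.26 with CPM averaged over cells, -0.16 as reported), and in macrophages all 231 did. Beyond their 95% counting intervals moved 56 of those 231 values in stromal cells, 55 of 231 in macrophages and 7 of 28 in endothelial cells. Counts of members that differed from those reported by more than 1.5 times were, in stromal cells, 2 higher in 16-week db/db among cells at or below the median immediate-early and heat-shock share, and, among cells at or below the median nuclear RNA share (an alternative chosen after seeing the data), 0 higher in 8-week db/db, where Sgk1 was at 0.99, and 2 lower in 16-week db/db. In macrophages they were 2 lower in 16-week db/db with CPM averaged over cells (4 as reported, and 3, without Fkbp5, with the median of all genes set to 0), and 1 lower (Per1) in 8-week db/db among cells at or below the median immediate-early and heat-shock share. In endothelial cells 1 gene was higher in HFD with at least 1500 UMIs (chosen after seeing the data). With the mitochondrial limit at 5%, 26 stromal cells and 49 macrophages of HFD remained, and the Fkbp5 log2 ratio in macrophages was -4.08. Counts in the 3 pathway lists stayed within 1.5 times at a floor of 5 CPM. Among the 4 genes lower in stromal cells of HFD, Per1 gave way to Hsd11b1 both with that limit and at the low immediate-early and heat-shock share. Leaving Fabp4 and Fabp5 out of the subset lists (chosen after seeing the data) moved 1 of 55 subset ratios beyond its interval, Sgk1 in progenitors of HFD (0.77), and 4 of the 55 changed sign.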

Other observations

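Few lymphoid cells and neutrophils were gated, and Hsd11b1 was found in them above the level of free stromal RNA. T and NK cells of 16-week db/db held 8 Hsd11b1 UMIs in 77 cells, 35.5% of the stromal level (interval 15.3 to 70.5), where 4 stromal genes outside the gates stood at 0.0738%. In 8-week db/db 7 UMIs in 103 T and NK cells were 10.4% of the stromal level (4.19 to 21.5) beside 0.976% for those genes, and 7 UMIs in 97 neutrophils were 22.5% (9.04 to 46.4) beside 3.23%. Of these 7 UMIs 4 lay in 1 neutrophil, which the interval does not reflect. T and NK cells of 8-week db/db also held Nr3c1 at 260 CPM (210 to 319) and Tsc22d3 at 254 CPM (205 to 313), the receptor above and Tsc22d3 below the stromal level of that library.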
